A study of Caenorhabditis elegans with 8 samples.

Results

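The *nlp-29* cluster is a run of 6 genes on chromosome V of *C. elegans*, *nlp-27* (B0213.2), *nlp-28* (B0213.3), *nlp-29* (B0213.4), *nlp-30* (B0213.5), *nlp-31* (B0213.6) and *nlp-34* (B0213.17), and its probes were found by these gene names among the 20401 probes for 19441 genes of the array. The rule found 5 probes, because no probe carried the name of *nlp-29*. The probe named for *nlp-28* lists *nlp-28* and *nlp-29* together in the annotation of the array, so these genes were read as 1 value, and 4 of the 6 genes had a probe that lists no other gene. In the RefSeq annotation (WBcel235) the 6 genes lie side by side with no other protein-coding gene between them, in the order *nlp-34*, *nlp-31*, *nlp-30*, *nlp-29*, *nlp-28*, *nlp-27*. The probes are 60 bases long, and the array lists them at chrV:3978673-3978732 (*nlp-34*), chrV:3980358-3980417 (*nlp-31*), chrV:3982477-3982536 (*nlp-30*), chrV:3987958-3988017 (*nlp-28* and *nlp-29*) and chrV:3989498-3989557 (*nlp-27*), in a genome build that the files do not name.

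The genes of the cluster encode short, secreted, glycine-rich peptides that are made in the epidermis, the cell layer under the cuticle. *nlp-29* is the best known of them. It is switched on when spores of the fungus *Drechmeria coniospora* pierce the cuticle or when the epidermis is wounded, through a p38 MAP kinase cascade that ends on the STAT-like factor STA-2, and it is therefore widely used as a reporter of epidermal innate immunity. HPL-1 and HPL-2 are the *C. elegans* relatives of heterochromatin protein HP1, and HIS-24 is a linker histone H1.

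Gene expression was measured in whole animals of 4 mutants in the N2 background, with 2 arrays for each. They were the double mutant *hpl-1 his-24*, the double mutant *hpl-2*; *his-24*, the double mutant *hpl-1*; *hpl-2* and a triple mutant of all 3 genes, built from the alleles *hpl-1*(tm1624), *hpl-2*(tm1489) and *his-24*(ok1024). The animals were raised at 21 °C, 80 to 100 of them gave each RNA sample, and 600 ng of RNA was amplified and labelled. The labels give the stage as L4 and young adult, the paper as L4. Neither wild-type animals nor single mutants were analysed here, so each value is a comparison of mutants, and any 2 of the comparisons that name the same genotype share its arrays. The *hpl-1 his-24* strain, the only one without the *hpl-2* deletion, is called the reference mutant below.

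Each value is a log2 level, the background-subtracted intensity of a probe relative to the 75th percentile of its array, and levels can be compared between arrays but not between probes. The 75th percentile lay between 4613 and 8501 intensity units, and a share of 77.3% to 84.7% of the probes stood well above background on each array. Replicate arrays were less alike in *hpl-2*; *his-24* (SD of the difference 0.53 on the log2 scale over all genes) than in the other genotypes (0.24 to 0.25). The *hpl-2*; *his-24* arrays also lay on a separate slide scanned on a separate day, which cannot be told apart from the genotype. The RNA of *his-24* was at background on the 6 arrays labelled with its deletion and that of *hpl-2* was lower on the 6 arrays labelled with its deletion. The *hpl-1* RNA was at background in *hpl-1*; *hpl-2* (-9.04 and -8.81). It was present, at -0.60 to -0.30, on the arrays labelled as the reference mutant and as the triple mutant. These 4 arrays are labelled with its deletion too, and the reason for the difference from *hpl-1*; *hpl-2* was not tested. In *hpl-2*; *his-24*, the genotype not labelled with the *hpl-1* deletion, the *hpl-1* RNA was at -0.49 and -0.65, so it was not lower on those 4 arrays as a group. The *hpl-2* RNA was still present on the arrays labelled with its deletion, at 0.04 to 0.52, beside 1.04 and 1.16 in the reference mutant. For *hpl-1*; *hpl-2* the array summary and the phenotype table of the paper name different *hpl-1* alleles. Where the probes lie relative to the deletions is not known here, and the 4 genotypes are named below only as the arrays are labelled. Marker genes of epidermis were well above background on all 8 arrays for 12 of the 12 on the array.

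All 5 probes of the cluster were well above background on all 8 arrays, and none of their spots was saturated or marked as an outlier. *nlp-34*, at the edge of the cluster, was the most variable. Its level was 0.87 and 0.79 on the reference arrays, 1.98 and -0.83 in *hpl-2*; *his-24*, -0.44 and -0.11 in *hpl-1*; *hpl-2*, and 0.06 and -0.01 in the triple mutant. The arrays of *hpl-1*; *hpl-2* and of the triple mutant lay below those of the reference mutant, whereas 1 array of *hpl-2*; *his-24* was the highest of the 8 and the other the lowest.

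*nlp-31*, whose peptide has been shown to act against fungi and bacteria, had levels of -0.09 and 0.25 in the reference mutant, 0.69 and -0.58 in *hpl-2*; *his-24*, -0.55 and -0.29 in *hpl-1*; *hpl-2*, and -0.53 and -0.42 in the triple mutant. The pattern was that of *nlp-34* on a smaller scale: the *hpl-1*; *hpl-2* and triple mutant arrays lay below those of the reference mutant, and the *hpl-2*; *his-24* arrays were again the highest and the lowest of the 8.

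*nlp-30* stood at -0.92 and -0.78 in the reference mutant, at -1.74 and -2.49 in *hpl-2*; *his-24*, at -1.97 and -1.73 in *hpl-1*; *hpl-2*, and at -1.48 and -1.33 in the triple mutant. The 6 arrays labelled with the *hpl-2* deletion were below both arrays without it. Among them the triple mutant was highest, and the arrays of the *hpl-2*; *his-24* mutant overlapped those of *hpl-1*; *hpl-2*. The share of all genes that separate by this label was not counted, so the separation does not set *nlp-30* apart from other genes.

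The probe that lists *nlp-28* and *nlp-29* varied least, within 0.84 on the log2 scale over the 8 arrays. Its level was 1.48 and 1.52 in the reference mutant, 2.03 and 1.59 in *hpl-2*; *his-24*, 1.28 and 1.66 in *hpl-1*; *hpl-2*, and 1.75 and 1.20 in the triple mutant. The arrays of *hpl-1*; *hpl-2* and those of the triple mutant spanned those of the reference mutant, and those of *hpl-2*; *his-24* lay just above them.

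*nlp-27*, at the other edge, had levels of 3.62 and 3.57 in the reference mutant, 3.53 and 3.20 in *hpl-2*; *his-24*, 3.21 and 3.55 in *hpl-1*; *hpl-2*, and 3.24 and 2.02 in the triple mutant. The highest array labelled with the *hpl-2* deletion read 3.55 and the lower reference array 3.57, too close to count as a separation. Triple mutant replicate 2 was the only array below 3.20. That low value came from 1 of the 2 spots of the probe: the spots read 0.68 and 3.35, a difference of 2.68. On the other 7 arrays the 2 spots of *nlp-27* differed by 0.02 to 0.64, and the spots of the other 4 probes differed by 0.35 at most.

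**Figure D1:**
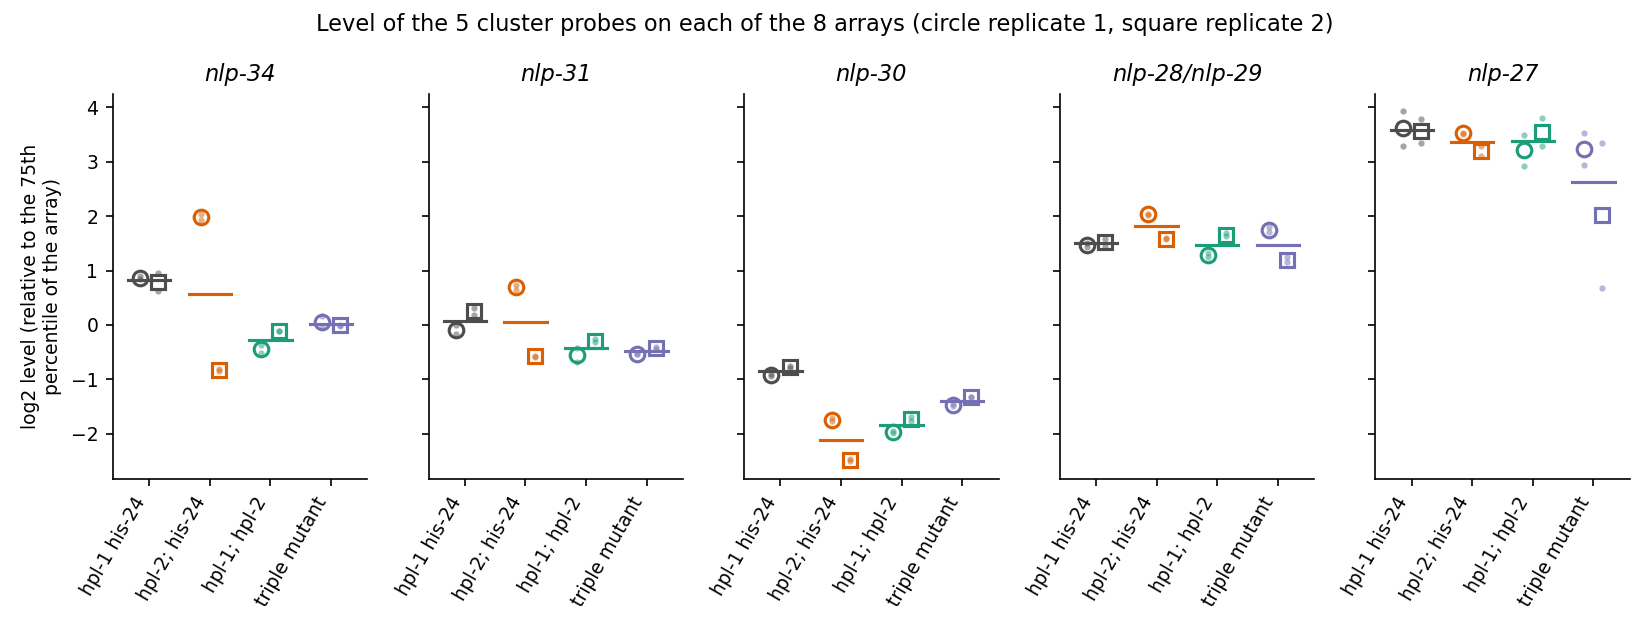
Log2 level of each probe of the *nlp-29* cluster, relative to the 75th percentile of the array, on the 8 arrays, in the order of the genes on the chromosome. Open circles and squares are replicates 1 and 2, small dots the 2 spots of each array and bars the genotype mean. Levels can be compared within a panel only. *nlp-30* is lower on the 6 arrays labelled with the *hpl-2* deletion, and the share of all genes that are so was not counted. The low spot of *nlp-27* on triple mutant replicate 2 stands at 0.68.

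The difference between mutants asks which of the HP1-like proteins and the linker histone the expression of these genes depended on. A gene was called at a limma adjusted p under 0.05 and a log2 fold change beyond 1.5, the rule applied to all 17092 genes tested. No probe of the cluster was called in any of the 6 comparisons (0 of 5 in each). Over all genes, 8.21% were called between the triple mutant and the reference mutant, 8.16% between *hpl-1*; *hpl-2* and the reference mutant, and 16.5% between *hpl-2*; *his-24* and the reference mutant. The triple mutant differed from the double mutant *hpl-1*; *hpl-2* in 3.94% of genes and from the double mutant *hpl-2*; *his-24* in 10.9%, and these double mutants differed from each other in 8.02%. At these shares, 5 probes without a call do not set the cluster apart from other genes. In whole animals, fewer epidermal cells and less RNA per cell cannot be told apart.

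By the adjusted p alone, *nlp-30* was the member that changed. It was 2.41-fold lower in *hpl-2*; *his-24* than in the reference mutant (log2 fold change -1.27, standard error 0.24, adjusted p = 0.00412), 1 of 5 probes lower, where 32.1% of all genes were lower and 33.5% higher. It was 2.00-fold lower in *hpl-1*; *hpl-2* than in the reference mutant (log2 fold change -1.0, standard error 0.24, adjusted p = 0.018), again 1 of 5 probes lower, beside 18.7% of all genes lower and 20.2% higher. In the triple mutant its log2 fold change against the reference mutant was -0.55 (95% interval -1.13 to 0.02, adjusted p = 0.11), and 0 of 5 probes passed in either direction, beside 19.1% of genes lower and 22.9% higher. The triple mutant was higher in *nlp-30* than *hpl-2*; *his-24* (0.71, adjusted p = 0.0465), 1 of 5 probes higher, where 27.6% of all genes were higher and 23.3% lower. This difference lay close to the threshold and passed in 6 of 16 alternative fits, with log2 fold changes of 0.34 to 1.09. Set against the double mutant *hpl-1*; *hpl-2*, the log2 fold change of *nlp-30* was 0.45 for the triple mutant (-0.13 to 1.03, adjusted p = 0.22). It was -0.26 for *hpl-2*; *his-24* (-0.84 to 0.31, adjusted p = 0.386). In these last comparisons 0 of 5 probes passed, beside 11.7% of genes higher and 10.9% lower for the triple mutant, and 23.5% higher and 28.0% lower for *hpl-2*; *his-24*. Beside these shares of all genes, 1 of 5 probes that passed does not set the cluster apart.

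The shared probe of *nlp-28* and *nlp-29* gave the narrowest intervals of the cluster. The log2 fold change against the reference mutant was -0.03 in the triple mutant (95% interval -0.60 to 0.55, adjusted p = 0.94). For the mutant *hpl-1*; *hpl-2* it was -0.03 (-0.60 to 0.55, adjusted p = 0.943), and for the mutant *hpl-2*; *his-24* it was 0.31 (-0.26 to 0.89, adjusted p = 0.282). The triple mutant shared slides with *hpl-1*; *hpl-2*, and the log2 fold change between them was 0.0014 (-0.57 to 0.58, adjusted p = 0.997). In all 6 comparisons its interval lay within 1.5 on the log2 scale, so a change past the call threshold was outside the interval, while a smaller change, or opposite changes of *nlp-28* and *nlp-29*, could not be detected with this probe.

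*nlp-31* also stayed within 1.5 in all 6 intervals. Its log2 fold changes against the reference mutant were -0.56 in the triple mutant (-1.48 to 0.36, adjusted p = 0.282), -0.50 in *hpl-1*; *hpl-2* (-1.42 to 0.42, adjusted p = 0.345) and -0.02 for the *hpl-2*; *his-24* mutant (-0.94 to 0.90, adjusted p = 0.961). *nlp-34* was too variable for such a bound, and none of its 6 intervals stayed within 1.5. Its log2 fold changes against the reference mutant were -0.80 in the triple mutant (-2.72 to 1.11, adjusted p = 0.449), -1.1 in *hpl-1*; *hpl-2* (-3.02 to 0.81, adjusted p = 0.317) and -0.25 for the *hpl-2*; *his-24* mutant (-2.17 to 1.66, adjusted p = 0.793).

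The log2 fold change of *nlp-27* between the triple and the reference mutant was -0.97 (-1.87 to -0.07, adjusted p = 0.0807). Without the low spot, an alternative chosen after its value was seen, the log2 fold change was -0.30 (adjusted p = 0.175). Without triple mutant replicate 1 it was -1.58 and called (adjusted p = 0.00600). Against the reference mutant, the log2 fold change of *nlp-27* was -0.21 for *hpl-1*; *hpl-2* (adjusted p = 0.701) and -0.23 for *hpl-2*; *his-24* (adjusted p = 0.606). Of the 30 intervals of the cluster, 19 lay within 1.5 on the log2 scale.

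**Figure D2:**
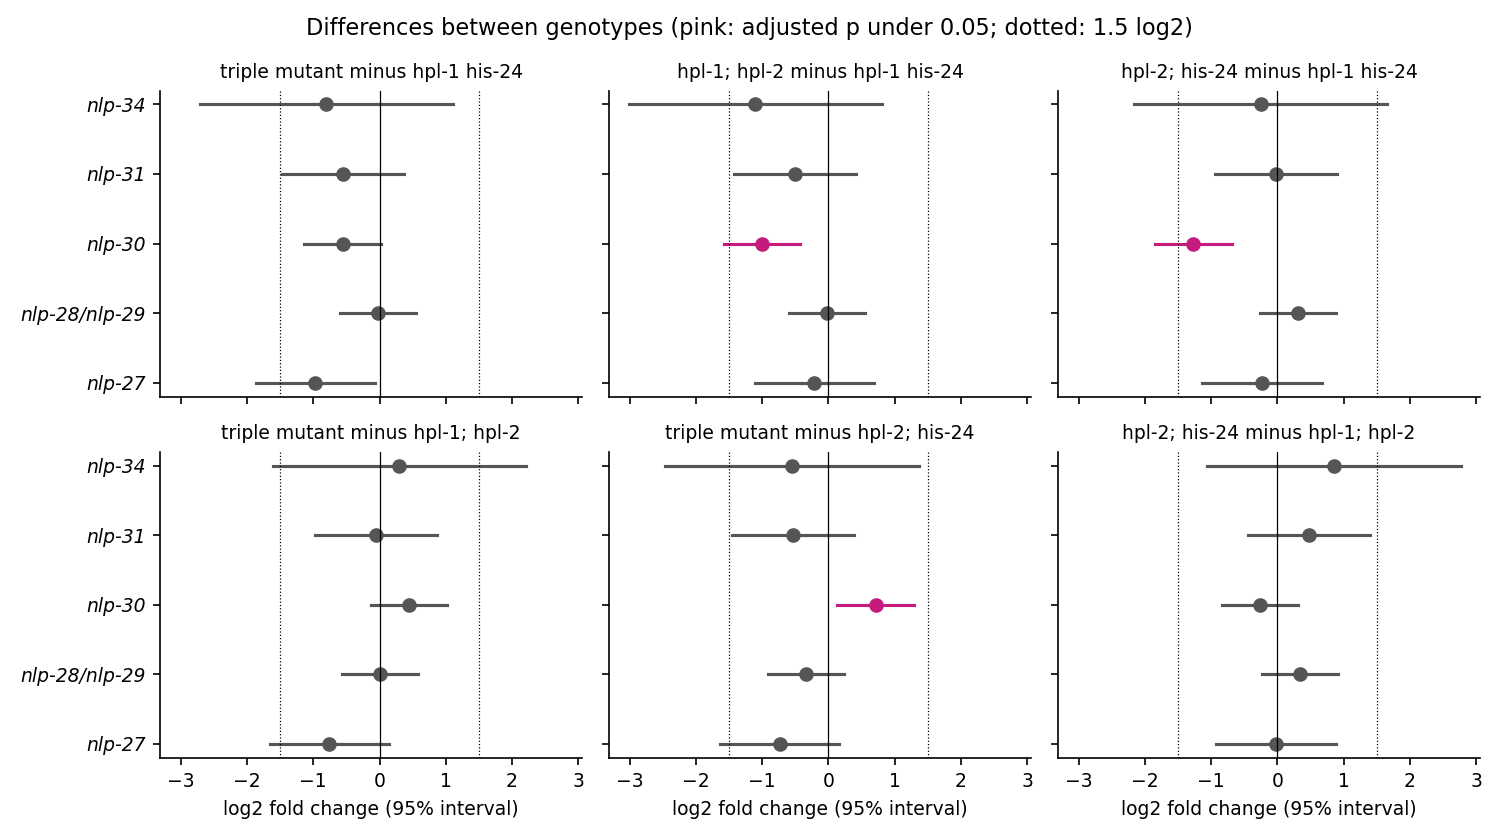
Log2 fold change (points) with 95% interval (lines) of the 5 probes in the 6 comparisons, fitted with limma on all 8 arrays. Pink marks an adjusted p under 0.05, and dotted lines the call threshold of 1.5. *nlp-30* alone is pink, in 3 panels, and the intervals of *nlp-34* are the widest.

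Replicates differed most within *hpl-2*; *his-24* for *nlp-34*, *nlp-31* and *nlp-30*, and within the triple mutant for *nlp-27* (1.22) and for the probe of *nlp-28* and *nlp-29* (0.55). In *hpl-2*; *his-24* all 5 probes were higher on replicate 1 than on replicate 2, as were 54.7% of the 17092 genes. The difference was 2.81 on the log2 scale for *nlp-34*, 1.27 for *nlp-31*, 0.75 for *nlp-30*, 0.45 for the probe of *nlp-28* and *nlp-29*, and 0.33 for *nlp-27*, which is also the order of the genes along the chromosome. Over all genes the median absolute difference between these arrays was 0.18, and 0.456% of genes differed by more than *nlp-34* and 2.76% by more than *nlp-31*. The caenacin genes, a further family of epidermal antimicrobial peptides, differed between the same arrays by more than 1 on the log2 scale for 5 of 9 genes, beside 6.21% of all genes, with the largest difference at 2.95. The other *nlp* peptide genes did so for 1 of 5, and the *fip* and *fipr* genes for 2 of 25. Of the epidermal markers, 9 of 12 were lower on replicate 1, and their summed linear level, which was 85.9% and 86.0% the collagen *col-19*, was 34.4 on replicate 1 and 54.1 on replicate 2. Genes outside the peptide families differed as well. The sperm markers were higher on replicate 1 for 5 of 5 genes, 2 of them by more than 1 on the log2 scale. The furrow collagens of the cuticle were lower on it for 6 of 6, and the epidermal marker *rol-6* differed by -3.26. The part of these differences in the spread of the cluster was not tested.

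**Figure D3:**
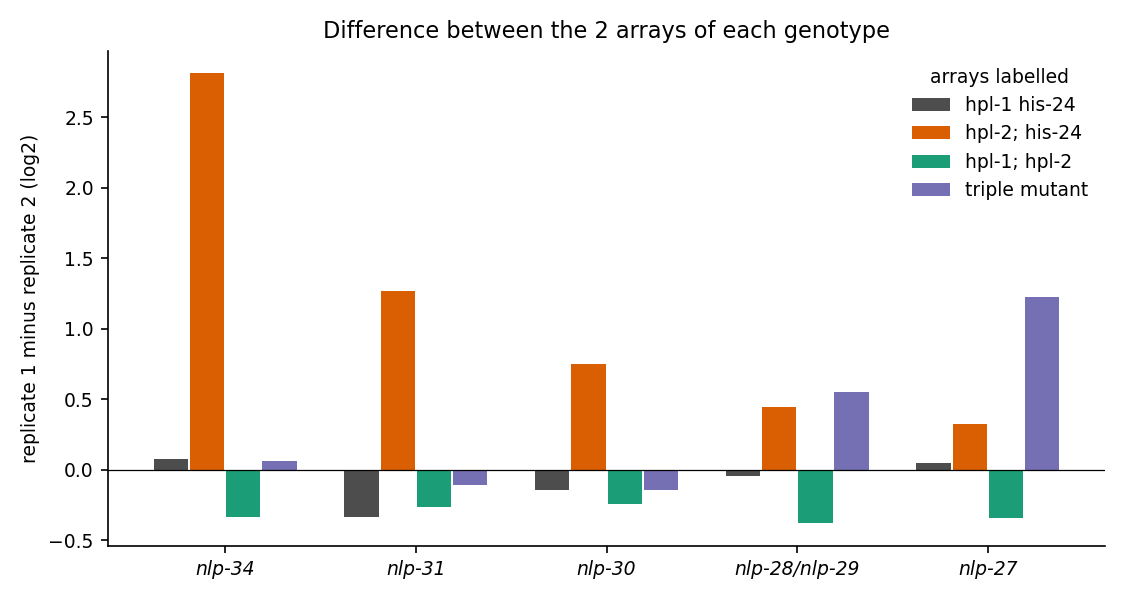
Level on replicate 1 minus level on replicate 2, in log2 units, for the 5 probes and the 4 genotypes as the arrays are labelled. The bars of *hpl-2*; *his-24* fall from 2.81 at *nlp-34* to 0.33 at *nlp-27*, and the largest bar of another genotype is that of *nlp-27* in the triple mutant at 1.22, which rests on 1 spot.

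The error of each gene was estimated over all 8 arrays, the variable *hpl-2*; *his-24* arrays included, and without these more members passed. With the 6 arrays of the other scan day, an alternative chosen after the values were seen, *nlp-34*, *nlp-31* and *nlp-30* were lower in the triple mutant than in the reference mutant (log2 fold changes -0.80, -0.56 and -0.55, adjusted p = 0.00266, 0.0202 and 0.00905), which is 3 of 5 probes where 23.4% of all genes were lower. The same genes were lower in *hpl-1*; *hpl-2* than in the reference mutant (-1.1, -0.50 and -1.0, adjusted p = 0.000724, 0.0321 and 0.00082), 3 of 5 beside 23.5% of all genes. These comparisons share the reference arrays, whose slides held none of the other genotypes. For *nlp-30* the triple mutant was then also above *hpl-1*; *hpl-2* (0.45, adjusted p = 0.0292), 1 of 5 beside 21.3% of all genes higher. The shared probe of *nlp-28* and *nlp-29* and the probe of *nlp-27* passed in none of the 3, and no member was called by the fold threshold.

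In *hpl-2*; *his-24*, the array that was kept decided the direction. Without its replicate 1, *nlp-34* was lower than in the reference mutant and called (log2 fold change -1.66, adjusted p = 0.00019), and *nlp-30* was called as well (-1.64, adjusted p = 0.000149). Without its replicate 2, *nlp-34* was higher (1.15, adjusted p = 0.00103), and *nlp-30* was lower (-0.89, adjusted p = 0.00228). In these fits the remaining array was assumed to vary like the arrays of the other genotypes. *nlp-30* was therefore lower in *hpl-2*; *his-24* with either array, and *nlp-34* had no direction.

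Over the 8 arrays, *nlp-34* and *nlp-31* were the most alike members, with a Pearson r of 0.94, and *nlp-30* and the probe of *nlp-28* and *nlp-29* the least, with an r of -0.16. The r of *nlp-27* with the other members was between 0.08 and 0.59. These are descriptions over 8 arrays that share labelling and normalization. Over the 6 arrays outside *hpl-2*; *his-24*, a choice made after the values were seen, the r of *nlp-34* was 0.85 with *nlp-31* and 0.96 with *nlp-30*. Among the 14991 genes that all 8 arrays read well above background, the 5 outside the gene lists with the highest r to the shared probe of *nlp-28* and *nlp-29* were R04E5.7 (0.95), C56C10.9 (0.92), R10F2.4 (0.87), *far-1* (0.87), which encodes a fatty acid and retinol binding protein, and F28B12.1 (0.86), with levels that spanned 0.50 to 1.24 on the log2 scale.

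In other families of epidermal antimicrobial peptides, genes were called in both directions. Of the 5 other *nlp* peptide genes, 2 passed as lower than in the reference mutant for *hpl-2*; *his-24*, 3 for *hpl-1*; *hpl-2* and 2 for the triple mutant, where 32.1%, 18.7% and 19.1% of all genes were lower, and 0 were higher. Their median log2 fold changes were -1.05, -1.16 and -0.96, beside -0.23, -0.50 and -0.56 for the cluster and 0.03, 0.03 and 0.07 for all genes. *nlp-32* was well above background on the reference arrays alone. Its levels in the mutants labelled with the *hpl-2* deletion were lower by at least 4.64-fold for *hpl-2*; *his-24* (adjusted p = 0.000129), by at least 1.55-fold for *hpl-1*; *hpl-2* (0.000275) and by at least 2.19-fold for the triple mutant (0.000297). These bounds follow the lowest detectable signal of each array and do not rank the genotypes, whose measured means were -8.83, -8.69 and -8.68 in the same order. Without the *hpl-2*; *his-24* arrays, a choice made after the values were seen, all 5 of these *nlp* genes passed as lower in *hpl-1*; *hpl-2* and likewise in the triple mutant. In these fits 23.5% and 23.4% of all genes were lower. Of the 5, *nlp-32* entered the test only through the reference arrays, so the filter favoured a lower level elsewhere.

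Of the 9 caenacins on the array, 4 were higher and 2 lower in *hpl-2*; *his-24* than in the reference mutant, 1 was higher and 1 lower in *hpl-1*; *hpl-2*, and 3 were lower in the triple mutant. The shares of all genes were 33.5% higher and 32.1% lower, 20.2% and 18.7%, and 22.9% and 19.1% for the same mutants. In *hpl-2*; *his-24* the log2 fold change was 1.55 for *cnc-2* (adjusted p = 0.00511), an infection-induced gene that is controlled by TGF-beta signalling, 1.88 for *cnc-7* (adjusted p = 0.00557) and 1.47 for *cnc-4*. The last gene was called only where the *hpl-2*; *his-24* arrays were set against the other arrays with the *hpl-2* deletion, by 1.65 above *hpl-1*; *hpl-2* and with a log2 fold change of -1.81 for the triple mutant relative to them. *cnc-1* was well above background on the reference arrays (-4.90 and -4.80) and on 1 array of *hpl-2*; *his-24* (-6.66), and it was lower by at least 3.45-fold in *hpl-1*; *hpl-2* and by at least 4.86-fold in the triple mutant. *cnc-1* entered the test only through the reference arrays, so the filter favoured a lower level elsewhere. For *cnc-5* the bound in the triple mutant was at least 1.64-fold lower. Without *hpl-2*; *his-24* replicate 1, 4 caenacins were still higher and 3 lower in this genotype than in the reference mutant, but 0 were called as higher, and without replicate 2, 4 were called as higher.

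Of the 25 *fip* and *fipr* genes tested, which encode further infection-induced peptides, 8 were higher and 10 lower in *hpl-2*; *his-24* than in the reference mutant, 5 higher and 9 lower in *hpl-1*; *hpl-2*, and 5 higher and 11 lower in the triple mutant. The higher counts are near the shares of all genes, at 33.5%, 20.2% and 22.9%, and the lower counts stand beside 32.1%, 18.7% and 19.1%. *fip-1* stood at -0.91 and -1.04 in the reference mutant and between -6.73 and -3.30 on the other 6 arrays, with log2 fold changes of -3.72 in *hpl-2*; *his-24* (adjusted p = 0.00672), -5.58 in *hpl-1*; *hpl-2* (0.00229) and -3.28 for the triple mutant (0.0181). *fipr-15* was called lower in the same 3 genotypes (-2.89, -1.73 and -1.94) and *fipr-13* in *hpl-2*; *his-24* (-2.84). *fip-2*, *fip-6*, *fipr-23*, *fipr-24* and *fipr-26* were called higher in *hpl-2*; *his-24* (1.65, 1.74, 2.49, 2.77 and 1.72), where the probe of *fipr-23* lists 2 genes. *fip-2* was called higher in *hpl-1*; *hpl-2* as well (1.53). *fipr-6* was called lower in the triple mutant (-1.62), and *fipr-4* and *fipr-7* were called with the triple mutant below *hpl-1*; *hpl-2* (-1.90 and -1.86), with the probes of *fipr-4* and *fipr-6* listing 4 and 3 genes. *fip-3* and *fipr-16* were called with the triple mutant above *hpl-1*; *hpl-2* (2.27 and 2.03), and *fipr-17* higher in *hpl-2*; *his-24* than in *hpl-1*; *hpl-2* (1.87). *fip-7* and *fipr-28* were well above background in the triple mutant alone, at least 4.36-fold and at least 6.37-fold above *hpl-2*; *his-24*. They entered the test only through the triple mutant, so the filter favoured a higher level there. The *hpl-2*; *his-24* arrays have the lowest detectable signal, which allows larger bounds than the other genotypes do.

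**Figure D4:**
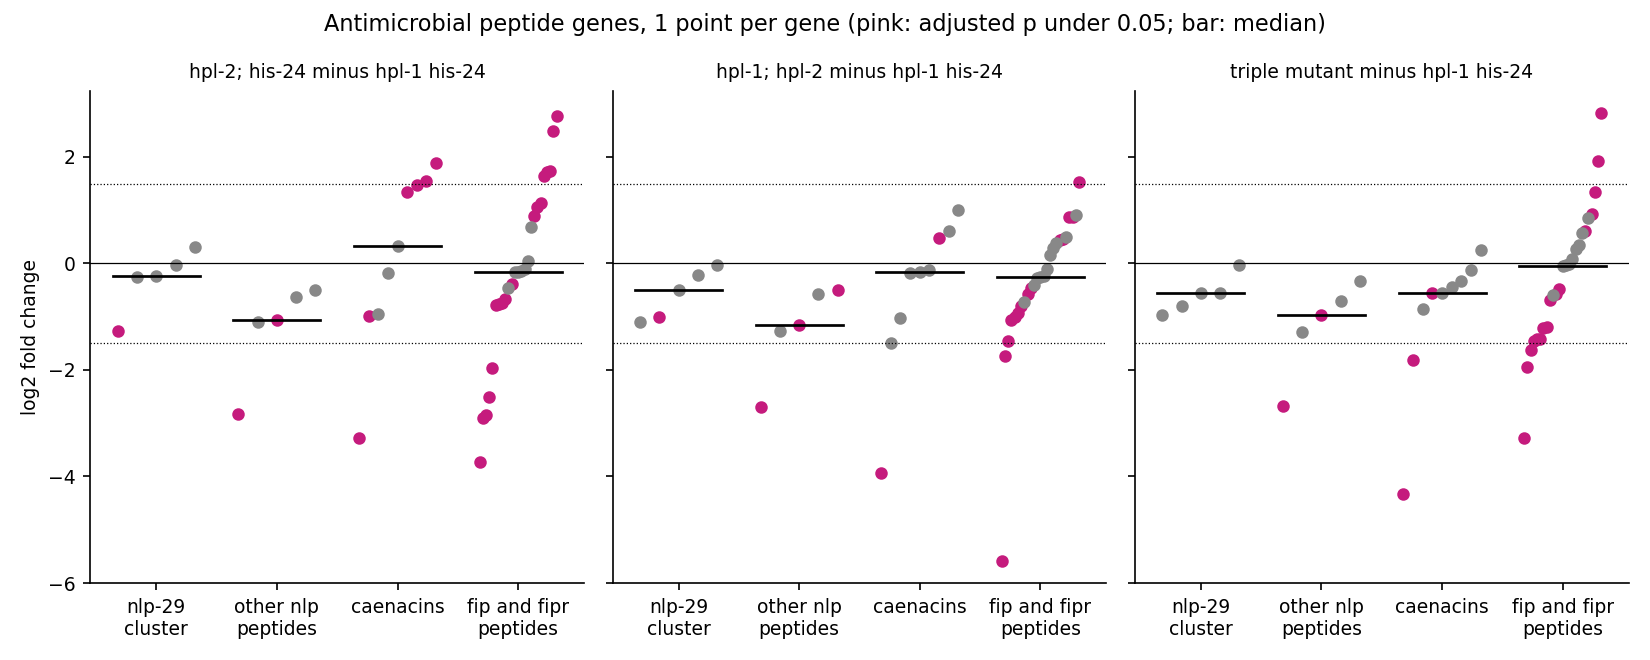
Log2 fold change against the reference mutant of each tested gene of the *nlp-29* cluster (5 probes), the other *nlp* peptides (5 genes), the caenacins (9) and the *fip* and *fipr* peptides (25), as fitted by limma. Bars are medians, pink marks an adjusted p under 0.05, and dotted lines the call threshold of 1.5. No point of the cluster lies beyond a dotted line. The fitted values of genes at background in 1 genotype, such as *nlp-32*, *cnc-1* and *fip-7*, are not bounds.

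All 18 listed genes of the pathway to *nlp-29* were measured, among them genes such as *dapk-1* that act against its expression. Counts over the list therefore pool genes of opposite roles. Against the reference mutant, 5 were higher and 6 lower in *hpl-2*; *his-24*, 0 were higher and 6 lower in *hpl-1*; *hpl-2*, and for the triple mutant 3 were higher and 7 lower. In *hpl-2*; *his-24* these counts are near those of all genes, of which 33.5% were higher and 32.1% lower. In the others 20.2% and 22.9% of all genes were higher and 18.7% and 19.1% lower. The receptor gene *dcar-1*, the G protein gene *gpa-12*, the p38 kinase gene *pmk-1* and the rest were not called, apart from 3 genes. *sta-2*, which encodes the STAT-like factor required for *nlp-29* induction, was read by a probe of F58E6.1a. Its level was -0.33 and -0.03 in the reference mutant, -4.50 and -4.16 in *hpl-2*; *his-24*, -1.15 and -1.12 in *hpl-1*; *hpl-2*, and 0.30 and 0.06 in the triple mutant. The log2 fold change of *sta-2* in *hpl-2*; *his-24* was -4.15 against the reference mutant (standard error 0.16, adjusted p = 7.13e-06). It was 4.51 for the triple mutant relative to *hpl-2*; *his-24* (adjusted p = 1.59e-05). In the same comparison with the reference mutant, the shared probe of *nlp-28* and *nlp-29* had the log2 fold change of 0.31 given above. The other members were at -1.27 (*nlp-30*), -0.25 (*nlp-34*), -0.23 (*nlp-27*) and -0.02 (*nlp-31*), and a link to *sta-2* was not tested. *nipi-4*, a pseudokinase gene needed for *nlp-29* induction, was called higher in *hpl-2*; *his-24* than in *hpl-1*; *hpl-2* (1.53, adjusted p = 0.000576). *dapk-1*, whose loss raises *nlp-29* expression, was well above background on 3 arrays, both of *hpl-2*; *his-24* and 1 of the triple mutant, and was at least 1.28-fold higher in *hpl-2*; *his-24* than in the reference mutant. It entered the test only through *hpl-2*; *his-24*, so the filter favoured a higher level there. *nipi-3*, a Tribbles-like kinase gene of the pathway, had a log2 fold change of 1.48 in *hpl-2*; *his-24* against the reference mutant (adjusted p = 4.63e-05), just inside the call threshold.

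Most listed genes of the cuticle and epidermis were lower in *hpl-2*; *his-24*, where 32.1% of all genes were lower. The furrow collagens, whose loss switches *nlp-29* on, were lower for 6 of 6 genes in this genotype than in the reference mutant (median -1.66), with *dpy-8* at -2.94, *dpy-9* at -1.94, *dpy-7* at -1.77 and *dpy-2* at -1.55. For *hpl-1*; *hpl-2* and also for the triple mutant 3 of 6 were lower, with medians of -0.55 and -0.56. Of the 12 epidermal markers, 7 were lower in *hpl-2*; *his-24*, led by *bli-1* (-5.73), *col-10* (-2.59), *rol-6* (-2.58) and *sqt-3* (-1.88), and 2 were higher. The higher genes were *lin-26*, with a mean level of 0.25 beside -0.14 in the reference mutant, and *nhr-23*, with -0.86 beside -1.34. The mean levels of *elt-3* (0.30 beside 0.52) and *elt-1* (-3.10 beside -2.83) differed by less than those of the lower genes named above. The summed linear level of the 12, of which *col-19* alone made 82.3% to 87.6%, was 85.5 and 77.0 in the reference mutant, 34.4 and 54.1 in *hpl-2*; *his-24*, 56.4 and 75.9 in *hpl-1*; *hpl-2*, and 67.3 and 62.6 in the triple mutant. Without *col-19*, a sum taken after its level was seen, it was 13.0 and 13.6, 4.86 and 7.56, 9.56 and 9.43, and 11.3 and 10.8 in the same order. The sperm markers were lower in *hpl-2*; *his-24* for 5 of 5 (median -1.44). The part of the epidermal and stage markers in the values of the cluster was not tested.

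The chromosomal neighbours of the cluster held called genes. Of the 16 other features tested within 40 kb of the shared probe, a window chosen after the values were seen, 8 were called against the reference mutant for *hpl-2*; *his-24*, 4 for *hpl-1*; *hpl-2* and 6 for the triple mutant, where 16.5%, 8.16% and 8.21% of all genes were called. Among these features is A_12_P108370, a probe without a gene name. It lies at 1.41 kb, inside the cluster and beside the *nlp-27* probe at 1.54 kb, and was not called. K09D9.9, the next protein-coding gene beyond *nlp-27* and 4.59 kb from the shared probe, was well above background in the reference mutant alone and was lower by at least 6.38-fold for *hpl-2*; *his-24* (adjusted p = 2.79e-05), by at least 2.13-fold for *hpl-1*; *hpl-2* (0.000195) and by at least 3.00-fold for the triple mutant (0.000315). K09D9.9 entered the test only through the reference arrays, so the filter favoured a lower level elsewhere. These bounds, too, do not rank the genotypes. On the other side lie cytochrome P450 genes of a family of similar sequences. *cyp-34A9* was called lower in all 3 genotypes (-1.62, -1.79 and -2.11), *cyp-34A10* in *hpl-2*; *his-24* and the triple mutant (-2.96 and -2.09), and *cyp-34A5* was called higher in *hpl-2*; *his-24* (1.64). *str-83*, the gene next to *nlp-34*, did not rise well above background on any array. The difference between the cluster and its neighbours was not tested.

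**Figure D5:**
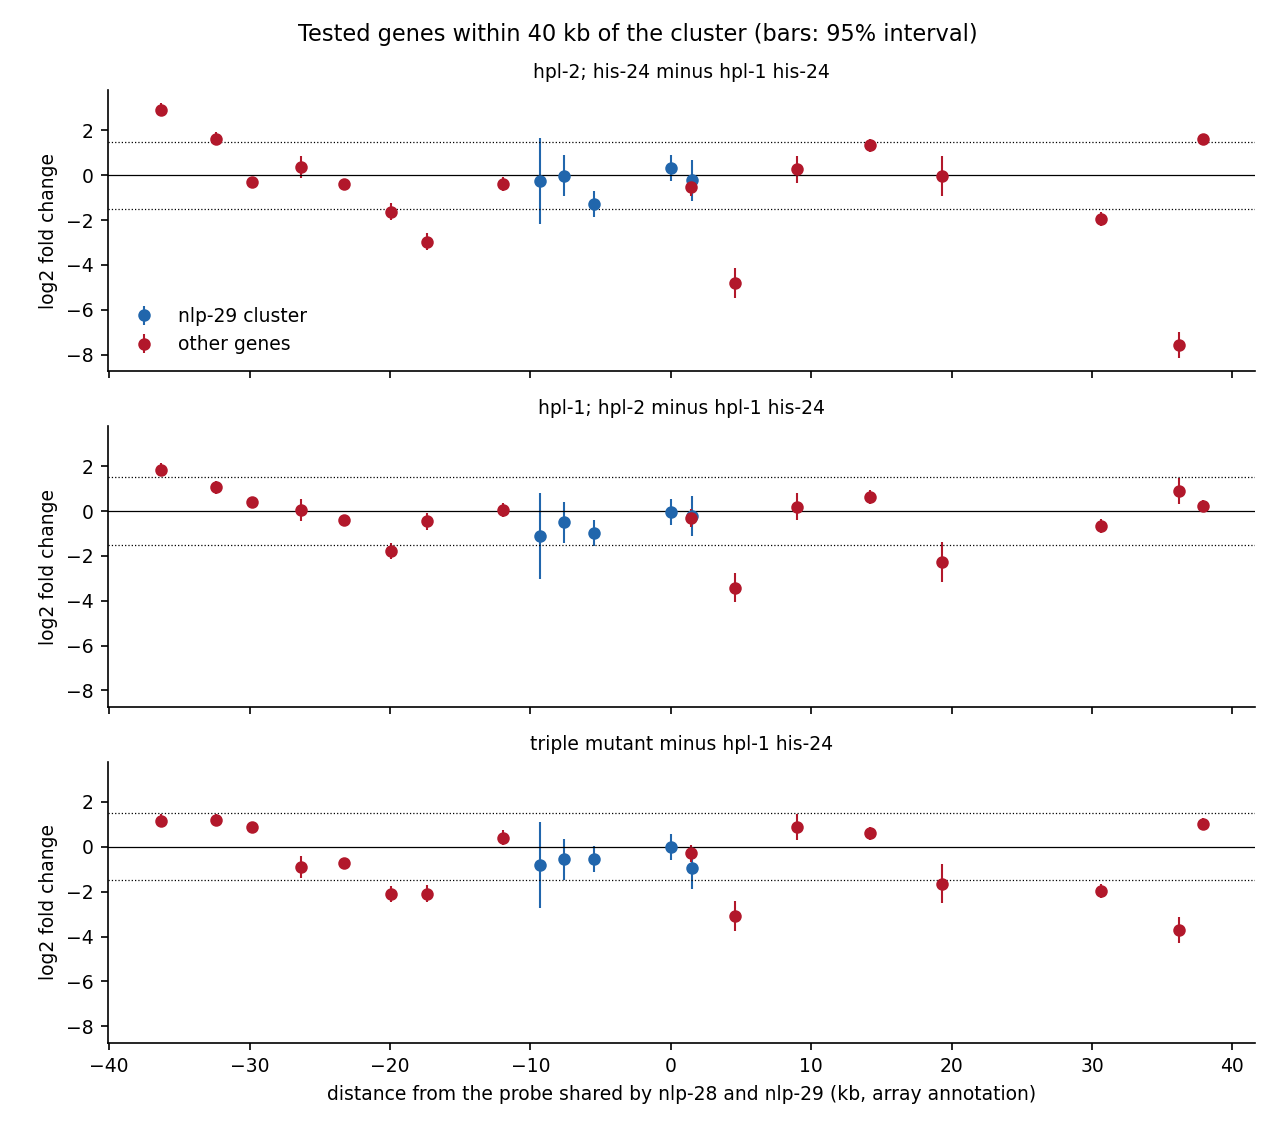
Log2 fold change against the reference mutant (points) with 95% interval (bars) of the features tested within 40 kb of the probe shared by *nlp-28* and *nlp-29*, by distance in kb from it as the array annotation places them. The 5 probes of the cluster are blue and the 16 other features red, and dotted lines mark the call threshold of 1.5. The blue points lie within the dotted lines, with called genes on both sides of them.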

How the data were processed

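The authors deposited intensities from Agilent Feature Extraction, which per the file headers subtracted a detrended background and did not normalize between arrays. A series table of log2 values, deposited by the authors as quantile-normalized brightness without background subtraction, served as an alternative. 0 per-sample columns were left unused. The paper names no normalization or test for these arrays.

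Spots marked as outliers (92 to 238 per array) were left out, the log2 intensity was taken relative to the 75th percentile of each array, and the 2 or more spots of a probe were averaged. Of 20113 identifiers, the 17092 that reached a signal well above background on both arrays of some genotype entered the test, limma 3.58.1 (R 4.3.3) with 1 mean per genotype, two-sided and adjusted by Benjamini-Hochberg over all of them (4 residual and 2.43 prior degrees of freedom). The fit was tested on simulated data. With 2 against 2 arrays, an exact permutation test cannot go below p = 0.3333. The labels call the arrays replicates and do not say whether they are separate cultures, so p-values measure the spread between these arrays, whose number limits the precision. A gene at background on every array of a genotype is given as a lower bound on the fold, with the dim level on each array set to the lowest signal among probes well above background, or to its own measured level where that was higher. This lowest signal was -8.15 and -8.28 on the *hpl-2*; *his-24* arrays and -7.15 to -6.39 on the others, so bounds are not compared between genotypes.

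The members, the gene lists and the rule for named genes were chosen with earlier results of these data known. The rule names the 6 members, the called genes of the peptide and p38 pathway lists, up to 4 genes of other lists, and the 5 genes most alike to *nlp-29*, for which the shared probe stood in. A list counts each gene by its brightest identifier. Symbols come from RefSeq (18124 of 19441 genes matched). K09D9.9 and the other features within 40 kb were chosen after their values were seen.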

Additional observations from a re-analysis of the deposited data

How the results depend on the processing

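The 2 arrays per genotype, the wider spread within *hpl-2*; *his-24* and the probe shared by *nlp-28* and *nlp-29* limit these results, and all 5 probes were well above background. The 0 called members stayed 0 in all 6 comparisons under each alternative that kept all 8 arrays and the fold threshold: quantile normalization, normexp with an offset of 50, the deposited log2 table, no filter, only probes well above background throughout, the mean of all probes, and slide as a random block. They also stayed 0 in the 3 comparisons fitted on the 6 arrays of 1 scan day and, for the triple mutant relative to *hpl-1*; *hpl-2*, on their 4 arrays with and without slide as a block. By adjusted p alone the count was 1 in 3 comparisons, those of *hpl-1*; *hpl-2* and of the *hpl-2*; *his-24* mutant with the reference mutant *hpl-1 his-24*, and that of the triple mutant with *hpl-2*; *his-24*. In the same order, *nlp-30* passed in 13 of 17, 16 of 16 and 6 of 16 alternatives, fits without 1 array included. Leaving out 1 array gave 0 to 1 called members for the triple mutant, compared with the reference mutant or with *hpl-2*; *his-24*. It gave 0 to 2 for the *hpl-2*; *his-24* arrays compared with the reference mutant, and 0 to 1 for them compared with *hpl-1*; *hpl-2*. Replicate numbers do not pair the samples (correlation of deviations -0.30 to 0.18), and the replicate block left the count at 0 in each comparison.

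Some uncalled log2 fold changes turned sign, and the cause was not tested. For the triple relative to the reference mutant, the shared probe of *nlp-28* and *nlp-29* moved to 0.081 with quantile normalization and 0.0041 in the deposited log2 table, and ranged from -0.30 to 0.25 with 1 array left out. *nlp-27* moved to 0.015 and 0.033 under the same settings for *hpl-1*; *hpl-2*, and to 0.0040 in the deposited table for *hpl-2*; *his-24*. With 1 array left out, the shared probe ranged from -0.22 to 0.16 for *hpl-1*; *hpl-2*, and for *hpl-2*; *his-24* *nlp-34* ranged from -1.66 to 1.15 and *nlp-31* from -0.66 to 0.61. For the triple mutant relative to *hpl-1*; *hpl-2*, the shared probe moved to -0.062 with normexp and ranged from -0.27 to 0.28 with 1 array left out, and *nlp-31* from -0.19 to 0.077. Relative to *hpl-2*; *his-24* the ranges of the triple mutant were -1.96 to 0.86 for *nlp-34* and -1.17 to 0.10 for *nlp-31*. Between the double mutants that carry the *hpl-2* deletion they were -0.55 to 2.26 for *nlp-34*, -0.16 to 1.11 for *nlp-31*, -0.64 to 0.11 for *nlp-30* and -0.19 to 0.15 for *nlp-27*.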

Other observations

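Further lists bear on epidermal peptide expression. Of the 5 genes on the array from the TGF-beta pathway that controls the caenacin *cnc-2*, 0 were called against the reference mutant, and the largest log2 fold changes past an adjusted p of 0.05 were those of *sma-2* (-0.98 in *hpl-2*; *his-24* and -0.86 in the triple mutant) and *sma-4* (0.88 in *hpl-2*; *his-24*). Of the 3 genes of the osmotic response, which raises *nlp-29* by a route apart from infection, *hmit-1.1*, a myo-inositol transporter gene, was called lower in the triple mutant (-1.77) and in the mutant *hpl-1*; *hpl-2* (-1.68). *gpdh-1*, the glycerol synthesis gene induced by high salt, had a log2 fold change of 1.06 in *hpl-2*; *his-24*.

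Among the markers of other tissues, the counts stand beside shares of all genes of 33.5% higher and 32.1% lower in *hpl-2*; *his-24*, 20.2% and 18.7% in *hpl-1*; *hpl-2*, and 22.9% and 19.1% in the triple mutant, and several are near these shares. Of the intestinal markers, 4 of 5 were lower in each of the 3 genotypes labelled with the *hpl-2* deletion than in the reference mutant *hpl-1 his-24*, with medians of -0.94 for *hpl-2*; *his-24*, -0.63 for *hpl-1*; *hpl-2* and -0.86 for the triple mutant. The yolk protein genes were lower for 4 of 6 in the triple mutant (median -0.89), 2 of 6 in *hpl-1*; *hpl-2* and 0 of 6 in *hpl-2*; *his-24*. Germline markers were higher for 3 of 4 in *hpl-2*; *his-24*, 4 of 4 in the mutant *hpl-1*; *hpl-2* and 2 of 4 for the triple mutant. In the same order, oocyte markers were higher for 1, 2 and 1 of 4, neuronal markers for 2 of 4 in each with 1 of 4 lower, and muscle markers for 1, 1 and 2 of 4, with 1 of 4 lower in *hpl-2*; *his-24*. The sperm markers outside *hpl-2*; *his-24* were higher for 1 of 5 in each of the other genotypes.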
